A study of Canis lupus familiaris with 13 samples.

Results

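This report describes 10 genes for inflammatory and regulatory cytokines in canine tumors: IL1A, IL1B, IL1RN, IL6, TNF, IL10, IL15, TGFB1, LIF and CSF1. They were taken by symbol from a table of raw read counts with 43427 gene symbols. All 10 symbols were present, and all 10 were among the 20118 genes that passed the filter on low counts. IL1B did not pass it when the early libraries were left out. RNA-seq had been done on 13 biopsies of 4 tumors from 3 companion dogs that received intratumoral IMAX, a nanoparticle of a polyethyleneimine and lithocholic acid conjugate that carries paclitaxel and a cyclic dinucleotide agonist of STING. Dog CL had a caudal and a cranial mammary tumor, dog BM had a mammary tumor of the left 5th gland, and dog RV had a soft tissue sarcoma. Each tumor had 1 pretreatment biopsy, called before. The early posttreatment biopsies were taken at 1 week (CL and BM) or 2 days (RV) after the second treatment. The late biopsies came 1 month (CL) or 3 weeks (BM) after the second treatment and, for RV, 2 weeks after the third, at the injection site and adjacent to it. There were therefore 4 before, 4 early and 5 late libraries. Every dog received all components of the nanoparticle, and no untreated or vehicle-treated dog was analysed here, so treatment and the passing of time cannot be told apart. Tumor type, dog and biopsy day cannot be told apart for RV either, and the 2 tumors of CL share a host.

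The interleukin-1 cytokines IL-1α and IL-1β start inflammation through a shared receptor, which the IL-1 receptor antagonist, the product of IL1RN, occupies without signalling. TNF and IL-6 carry the inflammatory response further, and LIF signals through the same co-receptor as IL-6. IL-10 and TGF-β1 restrain myeloid cells and lymphocytes, IL-15 maintains natural killer and memory T cells, and CSF1 keeps macrophages alive. STING, the sensor of cyclic dinucleotides, is known to drive type I interferons and NFκB, the transcription factor behind several of these cytokines.

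The libraries held 11622444 to 29931125 counts. Levels are given as counts or as CPM (each library's counts scaled to a common total) after TMM scaling, which are comparable between libraries for 1 gene and not between genes of different length. EPCAM, an epithelial surface protein, was at 122 to 460 CPM before and early in BM and at 11.5 CPM in the late BM biopsy, where COL1A1, the main fibrillar collagen, was at 40138 CPM. EPCAM was at 13 to 368 CPM in the 2 tumors of CL and at 1.02 to 13.2 CPM in RV. The early RV library stood apart: its summed epidermis markers were at 3156 CPM and its summed neutrophil markers at 6830 CPM, against 73.0 and 65.6 CPM before, while its mesenchyme markers were at 3311 CPM against 33361 CPM before. Long noncoding RNAs took 5.42% of its counts and 0.579% to 1.74% of those of the other 12 libraries. Fitted changes that rest on this library are given with and without it.

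Early biopsies were compared with the pretreatment biopsies of the same tumors to ask what the cytokine genes did soon after treatment. Of the 10 genes, 9 had a fitted log2 fold change above 0, where 60.3% of all tested genes did, and the median over the 10 was 2.01 against 0.25 over all tested genes. In edgeR's quasi-likelihood test with tumor as a block, 0 of the 10 had a Benjamini-Hochberg adjusted p under 0.05, and 0.00497% of all tested genes did. At an unadjusted p under 0.05, 4 of the 10 were higher early (IL1RN, IL10, LIF and CSF1) and 0 were lower, where 7.70% of all tested genes were higher at that threshold and 3.16% lower (10.9% in all). DESeq2 gave an adjusted p under 0.05 for IL1RN and IL10, and for 5.05% of all genes to which it gave one. These 4 genes were also those that were higher in the early library of all 4 tumors, as were 10.8% of all tested genes. In a bulk biopsy, more cells of a type that makes a cytokine and more RNA per cell cannot be told apart.

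**Figure D1:**
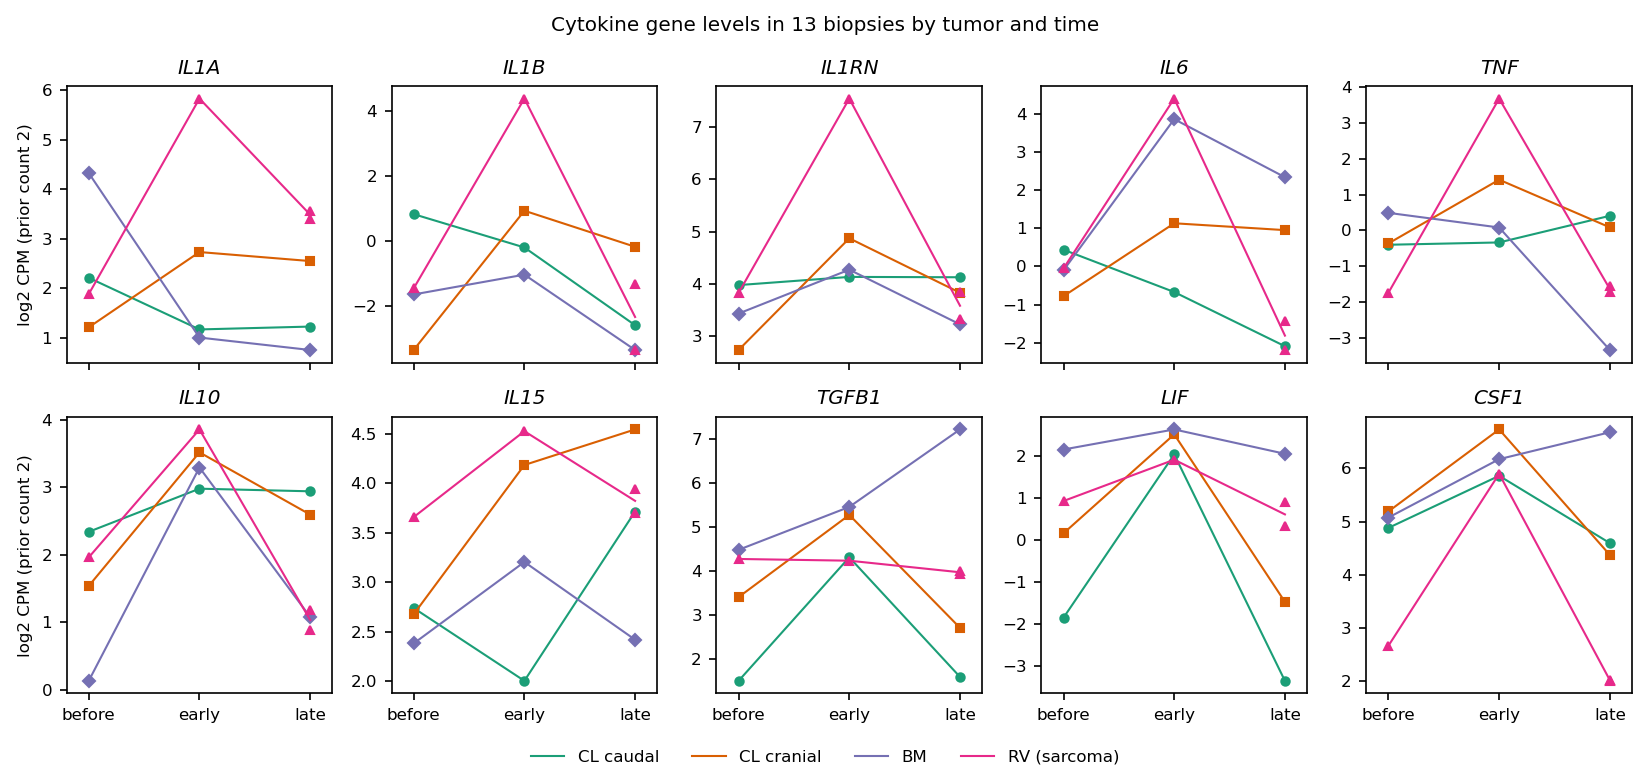
Level of each cytokine gene (log2 CPM with a prior count of 2, on a separate vertical axis for each gene) in the before, early and late biopsies, with 1 colour and marker for each tumor and lines through the tumor's values (through the mean of both late RV sites). IL1RN, IL10, LIF and CSF1 go up from before to early in all 4 tumors, and IL1A goes up in CL cranial and RV and down in CL caudal and BM.

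The 2 interleukin-1 agonists did not move in 1 direction. IL1A lies on chromosome 17 at 37152126 to 37160990 (RefSeq annotation of UU_Cfam_GSD_1.0, used for all positions here). Its level was 3.60 CPM before and 56.6 CPM early in RV, and 10.5 and 11.7 CPM at the 2 late sites. In CL cranial it was 2.23 CPM before, 6.55 CPM early and 5.77 CPM late. It was lower after treatment in the other 2 tumors, with 4.55, 2.16 and 2.25 CPM in CL caudal and 19.9, 1.92 and 1.60 CPM in BM. The BM values correspond to 718, 54 and 38 counts, a level 10.4-fold lower early than before (95% interval from counting error alone 7.88 to 13.99). The pretreatment BM library also had the highest epidermis marker sum of all 13, 3543 CPM. Of this sum, 1746 CPM were KRT5, with KRT1 at 15.3 CPM and DSG1 at 24.3 CPM. In the early RV library KRT5 was at 418 CPM, KRT1 at 427 CPM and DSG1 at 211 CPM. Across tumors the fitted IL1A change early was -0.07 ± 1.12 (log2 with SE, edgeR adjusted p = 0.984), and -0.90 without the early RV library.

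IL1B, on chromosome 17 at 37201034 to 37205552, was a low-count gene outside 1 library. RV had 4 counts before, 369 early, and 0 and 5 at the late injection and adjacent sites. CL cranial had 0 counts before, which allows up to 0.145 CPM, then 45 early and 9 late. The early level there was at least 9.72-fold higher in CPM by the lower end of the counting interval. CL caudal had 28, 19 and 1 counts and BM 8, 11 and 0. The early RV level, 20.7 CPM, was over all others, which reached 1.81 CPM at most. The early change fitted over all tumors was 2.23 ± 1.89 (edgeR adjusted p = 0.633), and 0.70 without the early RV library.

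IL1RN, the antagonist of both, was detected at 136 counts or more in every library. It lies in the same stretch of chromosome 17, at 37426795 to 37431843. Before and early levels were 15.7 and 17.5 CPM in CL caudal, 6.58 and 29.2 CPM in CL cranial, 14.1 and 186 CPM in RV, and 10.7 and 19.2 CPM in BM. The 4 early libraries thus lay above the 4 pretreatment libraries without overlap, which was also so for IL10 and CSF1 and for 2.71% of all tested genes. The CL caudal step was small, 1.12-fold with a counting interval of 0.954 to 1.31. The fitted change was 1.98 ± 0.67 (edgeR adjusted p = 0.328), and 0.95 without the early RV library, where the unadjusted p was no longer under 0.05.

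The balance of IL1RN to IL1B transcripts was also compared, because both are counted in the same library and their ratio is free of library size. IL1RN counts per IL1B count were 9.36 before and 22.6 early in CL caudal, 53.0 and 8.98 in RV, and 48.3 and 49.3 in BM. In CL cranial the early value was 16.1, with no IL1B count before. The log2 ratio (prior count 2) changed by -0.71 ± 1.65 (SD, n = 4 tumors) early, exact two-sided sign-flip p = 0.5, and by 0.77 ± 2.3 late, p = 0.625 in the same exact test. Its direction differed between tumors at both times. With 4 tumors this test cannot go below 0.125. IL1A, the other agonist, is not in this ratio and had more counts than IL1B in every library. In BM, IL1RN and IL1A had 386 and 718 counts before and 542 and 54 early. In CL caudal they had 262 and 76 before and 429 and 53 early. In CL cranial they had 136 and 46 before and 726 and 163 early. In RV they had 212 and 54 before and 3313 and 1009 early. The ratio to IL1A was not tested.

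The genes between IL1B and IL1RN on chromosome 17 encode further interleukin-1 family cytokines. IL36B had 752 counts in the early RV library and 0 to 6 in the other 12 libraries. IL36G, another epithelial agonist, had 548 counts there and 0 to 7 in 11 others, with 40 in the pretreatment BM library. IL1F10, which encodes IL-38, had 181 counts there and at most 2 elsewhere. IL37 had its highest count, 88, in the pretreatment BM library, and 35 in the early RV library. The 2 libraries with the highest IL36G and IL37 counts were thus those with the highest epidermis marker sums and the highest IL1A levels, and the part of epidermis in the IL1A levels was not tested. IL36RN had 0 counts in all 13 libraries, and its annotated span overlaps IL1F10.

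IL6, on chromosome 14 at 36553276 to 36557530, had 10 to 30 counts in every pretreatment library. Early counts were 374 in RV, 406 in BM, 52 in CL cranial and 13 in CL caudal. These correspond to 21.0, 14.4, 2.09 and 0.53 CPM, so IL6 was higher in 3 of 4 tumors and lower in CL caudal. In BM the level was still 5.95-fold above its pretreatment level late (counting interval 3.95 to 9.20), with 118 counts, and in CL cranial 3.79-fold above it (1.71 to 9.02), with 21 counts. RV had 4 and 2 counts at the late sites, and CL caudal 2. The fitted early change was 2.73 ± 1.48 (edgeR adjusted p = 0.518), and 0.74 without the early RV library.

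LIF, the second gp130 cytokine among the 10, lies on chromosome 26 at 23812337 to 23815691. Its level was 0.179 CPM before and 3.99 CPM early in CL caudal, 1.02 and 5.59 CPM in CL cranial, 1.80 and 3.65 CPM in RV, and 4.33 and 6.07 CPM in BM. The steps were larger in the CL tumors, 3 to 98 counts in CL caudal and 21 to 139 in CL cranial, than in BM, 156 to 171 counts. Late levels were 0 CPM in CL caudal, where 0 counts allow up to 0.205 CPM, 0.262 CPM in CL cranial, 1.15 and 1.75 CPM in RV and 4.03 CPM in BM. LIF was thus highest early in every tumor. The late level was clear of counting error below the pretreatment level in CL cranial alone, 3.88-fold lower (interval 1.16 to 20.3), since the intervals of BM and of both RV sites span 1 and the CL caudal tumor had 3 counts before and 0 late. The fitted early change was 2.43 ± 1.01 (edgeR adjusted p = 0.432), 2.86 without the early RV library and 1.23 without the early CL caudal library. Without that library, without the pretreatment CL caudal library (1.99), without the block (1.39), with CL summed (1.71), with dog as the block (2.2) and with only the compared libraries (1.98), the unadjusted p was no longer under 0.05.

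TNF, on chromosome 12 at 1213251 to 1215120, showed its large early level in 1 library. RV had 3 counts before, 228 early (12.8 CPM), and 3 and 4 late. CL cranial had 14, 64 and 11 counts, CL caudal 11, 17 and 18, and BM 47, 27 and 0. Only RV and CL cranial had early intervals clear of their pretreatment level: the CL caudal early level was 1.05-fold its pretreatment level with a counting interval of 0.465 to 2.49, and that of BM was lower with an interval of 0.440 to 1.20. In the fit the early change was 2.08 ± 1.54 (edgeR adjusted p = 0.597), and 0.48 without the early RV library.

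IL10, on chromosome 7 at 5697728 to 5701500, was higher early in all 4 tumors. Levels before, early and late were 4.97, 7.78 and 7.57 CPM in CL caudal, 2.81, 11.3 and 5.94 CPM in CL cranial, and 1.0, 9.69 and 2.02 CPM in BM. In RV they were 3.80 CPM before, 14.4 CPM early, and 2.17 and 1.75 CPM at the late sites. The lowest early level, 7.78 CPM, was above the highest pretreatment and the highest late level. The fitted early change was 2.03 ± 0.63 (edgeR adjusted p = 0.285), with the lowest unadjusted p of the 10 genes. Without the early RV library it was 1.73, and it was between 1.5 and 2.37 whichever library or tumor was left out.

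TGFB1, on chromosome 1 at 113413527 to 113429277, was higher early in the 3 mammary tumors and not in the sarcoma. Of all tested genes, 15.6% were higher early in all 3 mammary tumors. It was at 2.75 CPM before and 19.8 CPM early in CL caudal, 10.6 and 38.8 CPM in CL cranial, and 22.3 and 44.0 CPM in BM. In RV it was at 19.3 CPM before, 18.8 CPM early, and 16.1 and 15.2 CPM late, the narrowest range of the 10 genes in that tumor as a ratio of highest to lowest. Late it was back at 2.93 CPM in CL caudal and below its pretreatment level in CL cranial, at 6.47 CPM. The late BM library, rich in collagen transcripts, had the highest level of all, 149 CPM. The fitted early change was 1.57 ± 0.73 (edgeR adjusted p = 0.462), and 1.94 without the early RV library, where the unadjusted p was under 0.05.

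A property of the libraries is given beside these levels. TGFB1 lies among 61 annotated genes within 500 kb, more than at 94.2% of genes. TNF lies among more, 95 (99.2%), and CSF1 among 49 (86.3%). The level of genes in dense against sparse neighbourhoods differed between libraries, from -1.48 (log2) in the early RV library to 1.10 in the late BM library. In CL caudal it went from -1.15 before to 0.24 early and -0.84 late, in the same order as TGFB1. In BM it was 0.40 before, 0.83 early and 1.10 late, also in the order of TGFB1. In CL cranial it was 0.21, 0.08 and -0.31, while TGFB1 was highest early. In RV it was 0.25 before and -1.48 early, while TGFB1 was 19.3 CPM before and 18.8 CPM early. With an offset for this property, added after seeing the data, the fitted early change was lower for each of the 10 genes. The median over all tested genes also went down, from 0.25 to -0.03. It was 1.10 instead of 1.57 for TGFB1 and 0.35 instead of 0.69 for IL15. The same number of the 10 genes, 4, had an unadjusted p under 0.05, where 12% of all tested genes did with the offset.

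IL15, on chromosome 19 at 2058426 to 2083219, had the smallest early step apart from IL1A. Before and early levels were 6.58 and 3.91 CPM in CL caudal, 6.29 and 18.1 CPM in CL cranial, 12.5 and 23.0 CPM in RV, and 5.11 and 9.12 CPM in BM. Late levels were 13, 23.2, 15.3 and 12.9 (RV injection and adjacent sites) and 5.25 CPM in the same order. IL15 was higher early in 3 of 4 tumors, and late it was above the pretreatment level in all 4 when both RV sites were averaged, by as little as 0.04 on the log2 scale in BM. The fitted change was 0.69 ± 0.52 early and 0.71 ± 0.49 late (edgeR adjusted p = 0.599 and 0.973). Without the early RV library the early change was 0.47.

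CSF1, on chromosome 6 at 42485555 to 42505704, was higher early in every tumor. Levels before and early were 29.4 and 57.9 CPM in CL caudal, 36.4 and 106 CPM in CL cranial, 6.26 and 59.4 CPM in RV, and 33.6 and 72.0 CPM in BM. The pretreatment RV level was far under the other 3, and the early levels of the 4 tumors lay closer together on the log2 scale than the levels before. Late levels were 24.1 CPM in CL caudal, 20.6 CPM in CL cranial and 4.0 and 3.93 CPM in RV, all under the pretreatment level, and 102 CPM in BM, which was 3.04-fold above it. In the fit over all tumors, the early CSF1 change was 1.94 ± 0.64 (edgeR adjusted p = 0.311), and 1.09 without the early RV library. Without the block (1.48) and with mammary tumors only (1.24), the unadjusted p was no longer under 0.05.

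**Figure D2:**
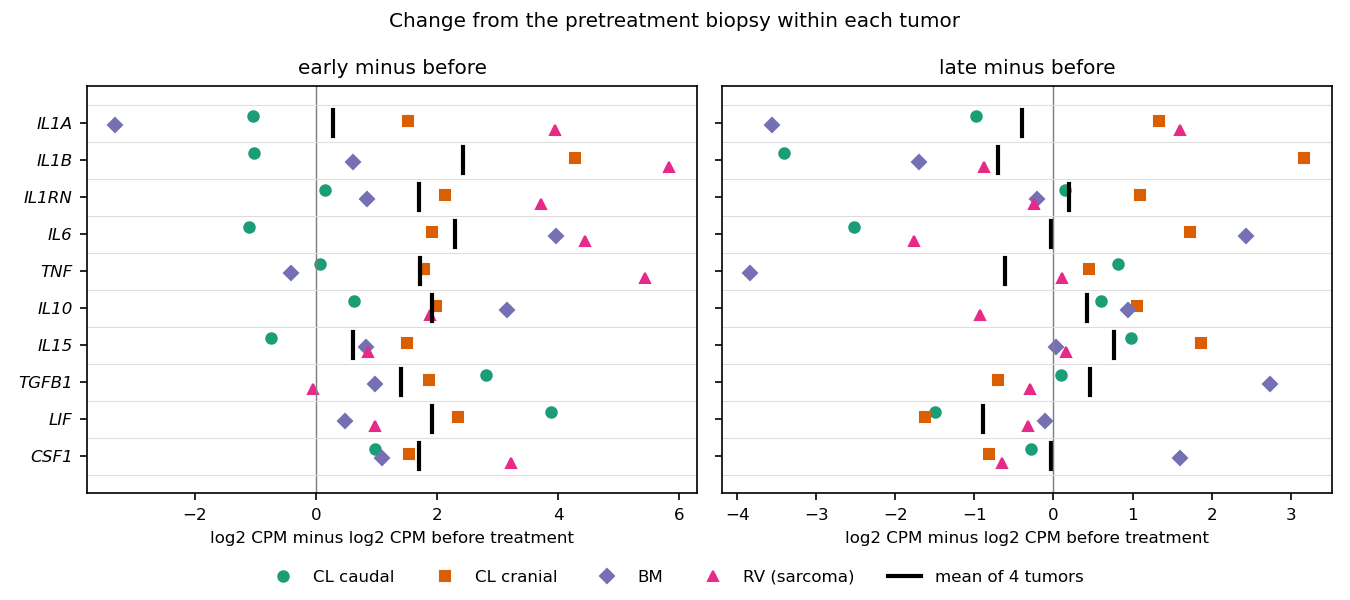
Change of each cytokine gene (log2 CPM with a prior count of 2) from the pretreatment biopsy of the same tumor, early on the left and late on the right, with a marker per tumor (both late RV sites averaged) and a bar at the mean of the 4 tumors. Early, all 4 markers lie right of 0 for IL1RN, IL10, LIF and CSF1. Late, all 4 lie right of 0 for IL15 and left of 0 for LIF.

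The mean within-tumor changes (log2 CPM, SD, n = 4 tumors) gave the same 4 genes early: 1.71 ± 1.57 for IL1RN, 1.92 ± 1.03 for IL10, 1.92 ± 1.53 for LIF and 1.71 ± 1.04 for CSF1. Each had an exact two-sided sign-flip p of 0.125, the smallest that 4 tumors allow. The test treats the 4 tumors as independent, though the 2 tumors of CL share a host. IL6 and IL1B had larger means, 2.3 ± 2.53 and 2.43 ± 3.18, and larger spreads (exact p = 0.25 and 0.375).

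Late biopsies were compared with the same pretreatment libraries to ask what was left weeks later. The 2 comparisons share those libraries. In edgeR's test 0 of the 10 genes had an adjusted p under 0.05 and 0 had an unadjusted p under 0.05, where 4.0% of all tested genes had the latter (1.28% higher) and 0% the former. DESeq2 also gave 0 of the 10 at either threshold, with 0.0348% of all tested genes at the adjusted one. The median fitted change over the 10 was -0.12, against -0.05 over all tested genes, with 4 of 10 above 0 (46.9% of all tested genes). IL15 was higher in all 4 tumors, as were 7.13% of all tested genes, and the log2 CPM of LIF was lower in all 4, as for 8.81%, with counting intervals that span 1 outside CL cranial. The mean changes were 0.76 ± 0.85 for IL15 and -0.89 ± 0.79 for LIF (SD, n = 4 tumors, exact sign-flip p = 0.125 for each). In the late BM biopsy TGFB1 was 6.68-fold, IL6 5.95-fold and CSF1 3.04-fold above the pretreatment level. IL1A was 12.5-fold under it, and TNF, at 0 counts, at least 8.10-fold under it by the lower end of the counting interval.

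The early and late libraries were then compared with each other, again in the fit that both other comparisons share. Of the 10 genes, 9 had a fitted change above 0, where 61.2% of all tested genes did. At an unadjusted p under 0.05, 6 of the 10 were higher early than late and 0 lower, where 17.7% of all tested genes were higher and 26.6% passed in either direction: IL1B by 4.36 ± 1.69, LIF by 3.02 ± 1.03, IL6 by 2.90 ± 1.28, CSF1 by 2.02 ± 0.62, IL1RN by 1.91 ± 0.61 and IL10 by 1.72 ± 0.58 (log2, SE). Among these, IL1B was kept by the filter on low counts only with the early libraries included. Its result here is therefore not independent of its early level. No gene of the 10 had an adjusted p under 0.05 in edgeR (0.0844 to 0.177 for these 6), and 0.00994% of all tested genes did, while DESeq2 gave an adjusted p under 0.05 to 7 of the 10 and to 23.9% of all tested genes. IL1B, IL1RN, IL6, IL10 and LIF were higher early than late in all 4 tumors, as were 17.4% of all tested genes. Some of these steps were close to 0. In CL caudal the early and late levels were 17.5 and 17.4 CPM for IL1RN and 7.78 and 7.57 CPM for IL10. For IL6 in CL cranial they were 2.09 and 1.84 CPM (52 and 21 counts). CSF1 was the exception among the 6, with the late BM level above the early one. The early IL1RN and IL10 levels lay above all 5 late levels, as for 4.49% of all tested genes, by only the narrow CL caudal margins given above. Without the early RV library 3 of the 10 had an unadjusted p under 0.05: IL10 (1.45), LIF (3.55) and CSF1 (1.10). In that fit 17% of all tested genes passed in either direction, and IL1B was at 2.09, IL6 at 1.30 and IL1RN at 0.82. In the mammary tumors alone only LIF had an unadjusted p under 0.05, at 3.72 (15.4% of all tested genes).

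**Figure D3:**
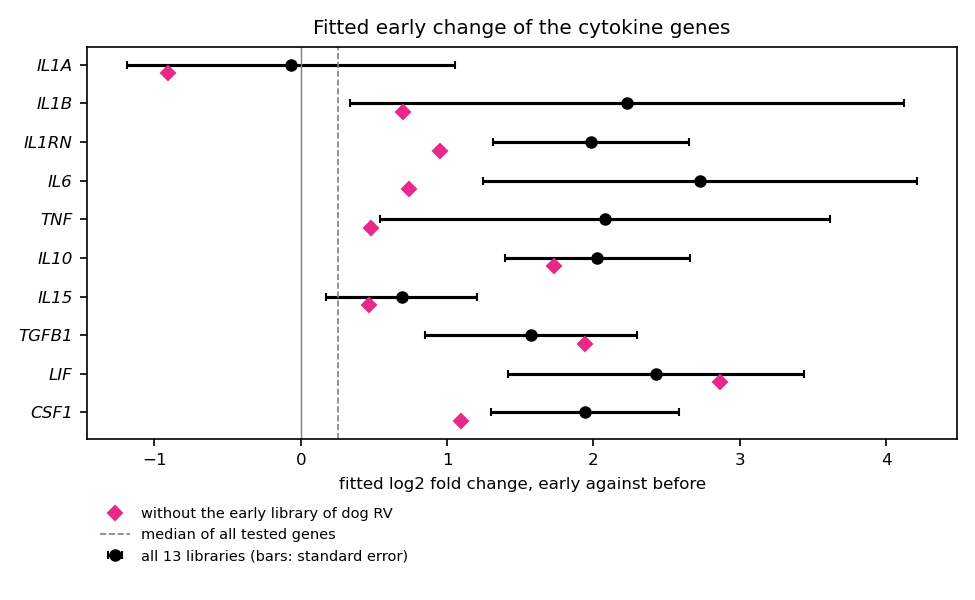
Fitted log2 fold change of each cytokine gene, early against before (edgeR with tumor as a block): black points with standard errors use all 13 libraries, pink diamonds leave out the early library of dog RV, and the dashed line is the median of all tested genes. The diamonds of IL1A, IL1B, IL1RN, IL6, TNF and CSF1 lie left of the points by over 0.8, and those of LIF and TGFB1 lie right of them.

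The size of the early step was set against tumor type by a term for RV in the fit, added after seeing the data, with 1 early sarcoma library. The early change in RV minus that in the mammary tumors was 5.39 ± 1.83 for IL1A, 5.69 ± 3.01 for IL1B, 5.58 ± 2.40 for TNF, 3.24 ± 2.11 for IL6, 2.68 ± 0.91 for IL1RN and 2.01 ± 1.04 for CSF1. It was -2.18 ± 1.52 for TGFB1, -1.77 ± 1.92 for LIF, -0.14 ± 1.18 for IL10 and 0.27 ± 1.13 for IL15 (log2, SE). The edgeR adjusted p values were 0.124 or more, with 3 of the 10 at an unadjusted p under 0.05 (IL1A, IL1RN and TNF) where 24.4% of all tested genes were. The 2 interleukin-1 agonists, TNF and IL6 had their highest early level in RV. The fitted early changes of TGFB1 and LIF were larger in the mammary tumors, with none of these differences past the adjusted threshold. For LIF this came from the tumors of dog CL (3.88 caudal and 2.35 cranial, log2 CPM), while BM (0.48) rose less than RV (0.98). In the fit without RV, 3 of the 10 had an unadjusted p under 0.05 early against before (IL10 2.06, LIF 2.82, TGFB1 2.15), where 6.51% of all tested genes did.

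**Figure D4:**
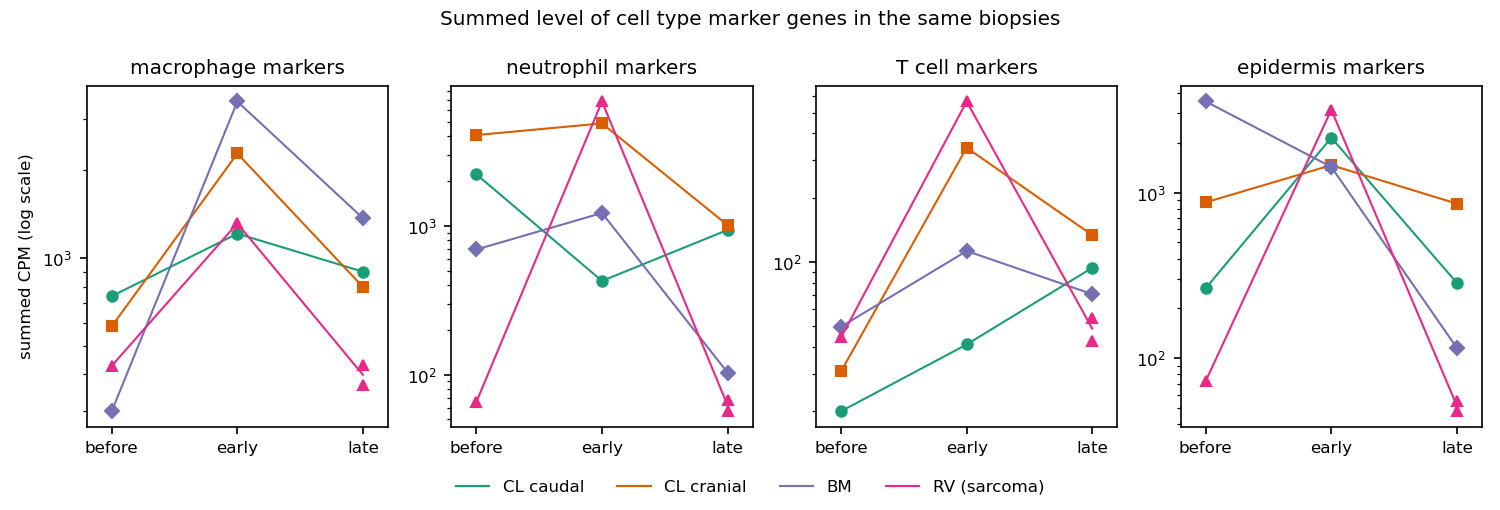
Summed CPM (log axes, separate for each panel) of marker genes of macrophages, neutrophils, T cells and epidermis in the 13 biopsies, with 1 colour and marker for each tumor. Macrophage and T cell sums are higher early than before in all 4 tumors, and the RV sums of neutrophil and epidermis markers peak early.

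Markers of leukocytes moved in the same biopsies. Of 10 macrophage markers, 9 were higher early at an unadjusted p under 0.05 in edgeR, where 7.70% of all tested genes were. The summed level of the 10 was 299 to 742 CPM before, 1215 to 3449 CPM early and 367 to 1373 CPM late. It was higher early than before in all 4 tumors, as were the summed T cell and endothelial markers and the levels of CSF1, IL10, IL1RN and LIF. Taken singly, 4 of the 10 macrophage, 5 of the 9 T cell and 5 of the 6 endothelial markers were higher in all 4 tumors. The share over all tested genes was 10.8%. Of 9 T cell markers 6 were higher early, with sums of 20.04 to 49.8 CPM before, 41.1 to 564 CPM early and 42.9 to 134 CPM late. Of 8 tested neutrophil markers 2 were higher early. Neutrophil sums were 65.6 to 4064 CPM before, 426 to 6830 CPM early and 56.7 to 1009 CPM late. In CL caudal the sum was lower early (426 CPM) than before (2214 CPM). There S100A8 went from 1544 to 44.9 CPM, S100A9 from 491 to 49.6 CPM and S100A12 from 70.8 to 8.23 CPM. CSF3R, the G-CSF receptor of neutrophils, went from 2.93 to 3.91 CPM in that tumor. The highest sum before, in CL cranial, came with S100A8 at 13.4 CPM and CSF3R at 2.61 CPM. All 6 endothelial markers were higher early, with sums of 41.0 to 133 CPM before and 103 to 1560 CPM early. Without the early RV library, 8 macrophage, 6 T cell, 6 endothelial and 0 neutrophil markers were higher at that threshold. The share over all tested genes was then 6.72%. Epidermis sums were 73.0 to 3543 CPM before and 1427 to 3156 CPM early. In the early CL caudal library KRT5 made up 1938 of 2143 CPM, with KRT1 at 0.815 CPM and DSG1 at 2.73 CPM. CSF3R was at 723 CPM in the early RV library, 88.9 CPM early in CL cranial and 0.67 to 11.8 CPM in the other 11. The part of these cell types in the cytokine levels was not tested.

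The receptor genes of the 10 cytokines, a list of 17, were all tested. Early against before, 7 were higher and 1 lower at an unadjusted p under 0.05, where 7.70% of all tested genes were higher and 3.16% lower, and the median of the 17 was 1.28 against 0.25 over all tested genes. The 7 were the TNF receptors TNFRSF1B (2.86 ± 0.56) and TNFRSF1A (1.59 ± 0.33), the IL-10 receptor chains IL10RA (2.31 ± 0.43) and IL10RB (1.28 ± 0.51), the common gamma chain IL2RG (3.45 ± 0.78), IL6R (1.91 ± 0.66) and CSF1R (1.99 ± 0.63). Each of the 7 was higher in all 4 tumors, as were 10.8% of all tested genes. LIFR, the receptor of LIF, was lower in all 4 tumors, by -1.78 ± 0.54, with 30.6 and 15.4 CPM before and early in CL caudal, 29.8 and 10.7 in CL cranial, 22.5 and 8.92 in RV and 51.8 and 6.82 in BM. LIF and its receptor thus lay on opposite sides of 0 in every tumor. The edgeR adjusted p was 0.117 or more for all 17. Without the early RV library, 7 of the 17 were again higher and 1 lower, where 6.72% of all tested genes were higher and 2.5% lower. The values were then 2.08 for TNFRSF1B, 2.56 for IL2RG, 1.88 for IL10RA, 2.02 for CSF1R and -1.76 for LIFR, and IL6R (1.22) and IL10RB (0.64) were no longer at an unadjusted p under 0.05, while IL2RB (2.32) and TGFBR2 (1.11) were.

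The other 9 receptor genes had an unadjusted p over 0.05. IL1R1, the signalling interleukin-1 receptor, was at 0.71 ± 0.51, its decoy IL1R2 at 1.34 ± 1.12 and the accessory chain IL1RAP at 1.25 ± 0.90. IL1R2, which captures IL-1 without signalling, was at 109 CPM in the early RV library and at 1.75 to 14.8 CPM in the other 12, so that the decoy receptor, the antagonist and both agonists all had their highest level in 1 library. IL6ST, which encodes gp130, was at -0.39 ± 0.73, IL15RA at -0.22 ± 0.63 and IL2RB at 1.81 ± 0.84. The TGF-β receptors TGFBR1, TGFBR2 and TGFBR3 were at -0.10 ± 0.35, 0.61 ± 0.59 and -0.57 ± 0.73. Late against before, 0 of the 17 had an unadjusted p under 0.05 in edgeR.

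**Figure D5:**
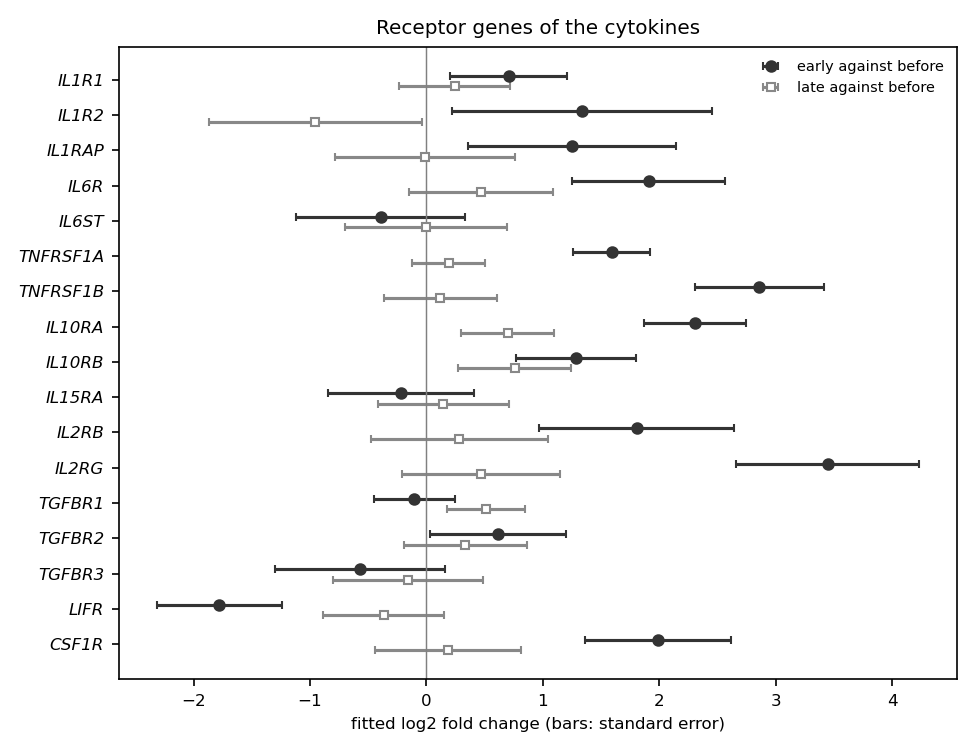
Fitted log2 fold change with standard error of the 17 receptor genes, early against before (filled points) and late against before (open squares), from edgeR with tumor as a block. TNFRSF1B, IL10RA and IL2RG lie over 2 early, LIFR lies at -1.78, and the late values are between -0.95 and 0.76.

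Other genes of the pathways were taken from 3 further lists. Of 14 tested genes that process or activate these cytokines, 3 were higher early at an unadjusted p under 0.05 and 0 lower, where 7.70% of all tested genes were higher: NLRP3, the inflammasome sensor, GSDMD (1.58 ± 0.39), which forms the pore that releases IL-1β, and FURIN (1.30 ± 0.45), a protease that cleaves pro-TGF-β. PYCARD, the inflammasome adaptor, was at 0.77 ± 0.45 and higher in all 4 tumors. Of 36 related cytokines 20 could be tested and 8 were higher early, with 0 lower. The largest changes with 1 direction in all 4 tumors were those of EBI3 (3.56 ± 0.88) and IL27 (3.16 ± 1.06), which encode the chains of IL-27, and IL23A (2.73 ± 1.24). Of 24 tested target genes of the cytokines 8 were higher early, with 0 lower. The largest changes with 1 direction in all 4 tumors were those of SOCS3 (3.17 ± 0.65), which brakes gp130 signalling, BCL3 (2.69 ± 0.69), an NFκB cofactor, and TGFBI (1.97 ± 0.71). The median early changes of the 3 lists were 0.83, 1.37 and 1.41. No gene of the 3 lists had an adjusted p under 0.05 in edgeR in any comparison. Late against before, 1 gene of the processing list, GSDMD (1.07 ± 0.37), and 0 of the other 2 lists had an unadjusted p under 0.05, where 4.0% of all tested genes did. Without the early RV library 4 of the 14, 6 of the 20 and 6 of the 24 were higher early, where 6.72% of all tested genes were. The early changes were then 2.73 for EBI3, 1.97 for IL27, 0.80 for IL23A, 2.81 for SOCS3, 2.27 for BCL3, 0.91 for TGFBI, 0.84 for NLRP3, 1.47 for GSDMD and 1.32 for FURIN.

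Across the 13 libraries the levels of the cytokine genes (log2 CPM) were compared pair by pair. Pearson's r was 0.89 between IL1B and IL1RN, 0.80 between TNF and IL1RN, 0.78 between IL1B and TNF and 0.70 between IL10 and IL1RN. TGFB1 and LIF had r = 0.87 with each other and -0.25 to 0.06 with TNF. The libraries share tumors and dogs, and the early RV library is the highest for IL1B, IL1RN and TNF, so these values are descriptions of the 13 libraries. Over the 12 libraries without it, r was 0.77 between IL1B and IL1RN, 0.55 between TNF and each of them, 0.76 between IL10 and IL1RN and 0.88 between TGFB1 and LIF. IL6 had its highest r among the other 9 genes with CSF1, 0.64 over 13 and 0.65 over 12 libraries. The most similar genes were then searched for among tested genes with symbols not starting with LOC, over all 13 libraries, early RV included. Those most like IL10 were CD180 (r = 0.94), GPR65 and ENTPD1, which leukocytes express. Those most like CSF1 were ST3GAL1 (0.96), GATAD2A and TRIM14, those most like TGFB1 were CCM2 (0.96), SPHK2 and PLSCR3, and those most like IL15 were ABCG2_1, TRAT1 and CLIC5 (0.91 to 0.92). For IL1B they were CD300E (0.92), SDR9C7 and IL22RA2, for IL6 ALX1, HHEX and SOWAHD (0.91 to 0.92), and for TNF MPP4, GRID1 and GALNT14 (0.95).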

How the data were processed

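RNA from 13 biopsies was sequenced as strand-specific libraries. Alignment to CanFam4.0 was done by the authors in Strand NGS, and the deposited values are raw counts, 1 row for each symbol, with no normalization. The counting rule, the use of strand and the annotation are not given in the sources used here. Reads of IL1A and IL1B, IL1RN, TNF and IL10 may therefore include those of annotated long noncoding RNA genes that overlap their spans (1 for each of these 5 genes). The members and gene lists were chosen with earlier results of these data known.

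Genes were filtered with filterByExpr (minimum count 10), scaled by TMM, and fitted with glmQLFit (robust) and tested with glmQLFTest in edgeR 4.0.16 (R 4.3.3), with tumor and time group as factors and Benjamini-Hochberg adjustment over 20118 genes (threshold 0.05). The block rests on biopsies coming from the same mass. Deviations from the group means correlated at 0.23 on average (-0.05 to 0.48) between before and early libraries of a tumor. DESeq2 1.42.0, other size factors, no low-count filter, other blocks and left-out libraries or tumors were alternatives. The fit was tested on simulated data with 200 changed genes. Those data had less spread than these, the same change in every tumor and no changed gene of low count. The test therefore does not show how the fit performs on the genes here. Within-tumor changes used log2 CPM with a prior count of 2 and an exact two-sided sign-flip test. That test treats the tumors as independent, though 2 of them are from dog CL. Named with values were all 10 members, their receptors, per other list the 3 largest early changes with 1 direction in all 4 tumors, and the 3 genes most like 7 of the members. Genes named outside this rule (IL36B, IL36G, IL1F10, IL37, IL36RN, EPCAM, COL1A1, CSF3R, NLRP3 and PYCARD among them) were chosen after their values were seen. No 2 libraries agreed within sampling noise (lowest chi-square per degree of freedom 41.3). A count of 0 allows up to 3 counts, and the 95% intervals cover counting error only. Nothing states that biopsies were split into replicate extractions, so each tumor and time has 1 library except late RV. Gene positions came from RefSeq, which matched 98.0% of symbols.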

Additional observations from a re-analysis of the deposited data

Results flagged for a closer look

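CSF1 before treatment was far lower in RV, at 2.67 on the log2 CPM scale, than in the 3 mammary tumors, a gap that is large for a group of 4. It was the 1 group set apart in this way of 30 examined, and chance gives 1.5. The cause was not tested, and tumor type and dog cannot be told apart.

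IL10 late had opposite signs by tumor type: the difference was -0.927 in RV (log2 CPM, mean of both sites) and 0.60, 1.06 and 0.94 in the 3 mammary tumors. The test of the difference in edgeR gave -1.82 ± 1.06 (adjusted p = 0.998), so it was not past the threshold.

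TGFB1 early was higher in the 3 mammary tumors, by 2.81, 1.87 and 0.97, and its value in RV was -0.0392, a 0.973-fold level whose counting interval spans 1 and reaches 1.14. The tested difference was -2.18 ± 1.52 (edgeR adjusted p = 0.397). Of 20 such differences, these were the 2 in which the sign in RV was opposite to that of all mammary tumors.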

How the results depend on the processing

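With 4 before, 4 early and 5 late libraries and no gene of the 10 past the adjusted threshold, the calls below are of single genes over the whole table and of unadjusted p values. Tumor was the block. Without that block the number of genes called was 0 early against before (1 with it) and 0 early against late (2 with it), the early IL1A change was 1.14, the late changes of IL6 and CSF1 were 0.78 and 0.23, and TGFB1 early against late was -0.33. With dog as the block both counts were 0, IL1A was 0.15 early, IL6 0.19 late and IL15 0.050 early against late. Pairing changed no other sign among the 10 genes.

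Both counts were also 0 with the CL tumors summed, with the late RV sites summed, with only the compared libraries and with mammary tumors only. They were 0 (early against before) with median-of-ratios size factors, 17 and 1081 with no low-count filter, and 956 and 4809 with DESeq2, which called 7 genes late. With the gene density offset, added after seeing the data, 1 gene was called early against late, and the median early change of all tested genes went from 0.25 to -0.03. Reversed among single genes were IL1A early with only the compared libraries (0.26), IL1RN late with CL summed (-0.022), IL6 late with CL summed, RV sites summed and mammary only (0.24, 0.26 and 0.33), CSF1 late with the same 3 settings (0.13, 0.12 and 0.31), and IL15 early against late with median-of-ratios size factors (0.00055), DESeq2 (0.0013), CL summed (0.25) and only the compared libraries (0.025). With mammary tumors only, 1 of the 10 genes, against 6, had an unadjusted p under 0.05 early against late.

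Leaving out 1 library or tumor gave 0 to 12 genes called early against before and 0 to 2000 early against late, the most without the early BM library, then 809 without the pretreatment RV library. Members with an unadjusted p under 0.05 numbered 3 to 5, 0 to 1 (the 1 without CL cranial) and 1 to 7 in the early, late and early against late comparisons, the 1 without RV. Early IL1A ranged from -1.42 (without RV) to 1.42 (without BM). Late changes ranged from -1.92 to 0.37 for IL1A, -0.27 to 0.32 for IL1RN, -1.34 to 1.10 for IL6, -2.43 to 0.36 for TNF, -0.0092 to 0.87 for IL10, -0.32 to 1.25 for TGFB1 (lowest without the late BM library) and -0.80 to 0.31 for CSF1. Early against late, IL1A ranged from -0.29 (without the early RV library) to 1.53 and IL15 from -0.39 to 0.36. The causes were not tested. Counts of 0 to 30 leave IL1B, IL6, TNF and LIF imprecise in many libraries.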

Other observations

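Some cytokine genes outside the 10, named after their values were seen, had most of their counts in the early RV library. CSF3, which encodes the granulocyte growth factor G-CSF, was at 14.4 CPM there and at 0.359 CPM or less in the other 12 libraries. It did not pass the filter on low counts and was not tested. OSM, a gp130 cytokine of myeloid cells, was at 50.4 CPM there and at 0.194 to 2.97 CPM in the others, with a fitted early change of 2.73 ± 1.27 (log2, SE; edgeR adjusted p = 0.463), and 0.92 ± 0.78 without that library. IL34, the other ligand of the CSF1 receptor, went against CSF1 in RV, with 44.9 CPM before, 7.63 CPM early, and 79.8 and 36.0 CPM at the late injection and adjacent sites. In BM it was at 21.4, 53.4 and 21.4 CPM before, early and late, and its fitted early change over all tumors was -0.07 ± 0.64 (edgeR adjusted p = 0.969). The difference between IL34 and CSF1 was not tested.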
